A study of Mus musculus with 8 samples.

Results

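Zbtb20 and Zbtb32 are 2 of the 17921 genes counted in single cells of mouse lung grafts, and they are described here in every labelled cell type, in the clusters of B cells and plasma cells (PCs) and in the clusters of lung structural cells. Both were taken by name. A cell was counted as holding a transcript when at least 1 molecule of it was read: 3729 of 20778 cells held Zbtb20 (5617 molecules) and 192 held Zbtb32 (259 molecules, at most 9 in a cell). The cells came from left lung grafts of 8 male mice, taken 1 month after orthotopic transplantation without immunosuppression. In the B6→B6 group (5 mice) donor and recipient were C57BL/6 (B6), the control that is not rejected. In the HLA→B6 group (3 mice) the donor was of the strain the labels call HLA, a transgenic line (1Enge) on the C57BL/6 background that carries human HLA-A2.1, the recipient was B6, and the grafts were taken while bronchiolitis obliterans syndrome (BOS), the airway form of chronic rejection, was developing. Each mouse gave 1 library. Mice of the HLA→B6 group are numbered as in the deposited table of cells.

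Both genes encode transcription factors of the BTB zinc finger family, proteins that bind DNA through zinc fingers and recruit corepressors through a BTB domain, so that they mostly repress transcription. Zbtb20 is known from the liver, the hippocampus, B-1 cells, the innate-like B cells that make natural antibody, and PCs, whose survival it supports. Zbtb32, also called repressor of GATA, restrains T helper cytokine responses and the recall of memory B cells, and is used by proliferating natural killer cells during viral infection.

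Zbtb20 (ENSMUSG00000022708) is a long gene, at chr16:42875881-43642602 on the plus strand of GRCm38, with 21 annotated transcripts over 766722 bp. There, 9 other annotated genes overlap it, 5 on the same strand and 4 on the opposite one, and 1 of these is in the table of counts. Zbtb32 (ENSMUSG00000006310) is at chr7:30589681-30598909 on the minus strand, has 3 transcripts over 9229 bp and overlaps no other gene. Because only the 3′ ends of transcripts were read, the counts do not tell which start site a transcript came from.

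The promoters are shown so that the start regions of the pair can be set side by side, from RefSeq on GRCm38.p6, each as 250 bases before and 50 after an annotated start, 5′ to 3′ on the strand of the gene. They lie at chr16:43247034-43247333 (plus strand, Zbtb20), inside the long gene, and at chr7:30598860-30599159 (minus strand, Zbtb32). Capitals mark each CCAAT, the box bound by the factor NF-Y.
Zbtb20: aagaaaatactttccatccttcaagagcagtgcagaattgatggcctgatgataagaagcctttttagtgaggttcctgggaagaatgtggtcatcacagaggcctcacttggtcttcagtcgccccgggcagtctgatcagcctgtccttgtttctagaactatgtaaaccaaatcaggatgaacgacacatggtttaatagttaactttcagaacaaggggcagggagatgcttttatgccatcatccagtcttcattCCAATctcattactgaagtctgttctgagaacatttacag
Zbtb32: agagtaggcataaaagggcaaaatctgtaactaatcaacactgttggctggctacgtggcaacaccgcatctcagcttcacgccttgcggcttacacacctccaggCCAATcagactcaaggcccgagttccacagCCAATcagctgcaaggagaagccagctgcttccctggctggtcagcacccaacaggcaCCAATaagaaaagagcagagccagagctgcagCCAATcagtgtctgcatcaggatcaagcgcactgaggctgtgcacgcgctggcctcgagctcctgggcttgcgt
The Zbtb32 window holds CCAAT 4 times, every time in the direction of transcription, and the Zbtb20 window holds it 1 time. Of 32851 mouse promoter windows of this length, 37.4% hold CCAAT on either strand and 1.06% hold it 4 times or more. Neither window holds the octamer ATGCAAAT (in 1.74% of promoters) or the ETS-IRF composite element (GGAA, any 2 bases, then GAAA, in 2.72%), searched on both strands without overlap between motifs, and a window of this length says nothing of sites elsewhere. CpG dinucleotides numbered 3 in the Zbtb20 window and 10 in the Zbtb32 window, beside a median of 7 over all promoters. A further annotated start of Zbtb32, at chr7:30592893-30593192, had no CCAAT. For Zbtb20 only the window shown was searched, so its counts of CCAAT and CpG do not speak for other starts of that gene.

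Libraries held between 1669076 and 12445769 unique molecular identifiers (UMIs, 1 per molecule read) in 868 to 6544 cells, with a median of 1356 to 1948 UMIs per cell. Levels below are UMIs of the gene per 1000000 UMIs of the same cells (CPM), summed per mouse and averaged over mice with at least 10 cells of the kind, ± SD, and they are not scaled by transcript length, so each gene is compared with itself only. The defining markers went with the labels of B cells (B cell markers in 99.8% of cells), PCs (100%), T cells (96.1%) and natural killer (NK) cells (99.9%). The cells labelled leukocytes carried neutrophil markers at 187345 CPM. Of all cells, 1014 had a barcode that also occurred in another mouse, and B6→B6 replicates 1 to 3 and HLA→B6 replicates 1 and 2 were linked by more such barcodes than the number of cells gave. Results that rest on a difference between the groups are therefore also given within the linked and the unlinked libraries.

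Zbtb20 was read in every cell type, and its level was highest in the cells labelled structural. That label held endothelium and fibroblasts, but also red blood cells and cells with platelet markers. There it averaged 333 ± 126 CPM over 8 mice, from 150.0 to 477 CPM, and these cells held 56.1% of all Zbtb20 molecules with 19.9% of all UMIs. Among types with at least 10 cells in 2 or more mice, B cells followed with 147 ± 74.8 CPM, then NK cells with 135 ± 33.9 and PCs with 131 ± 55.6 (2 mice). Type 2 pneumocytes (32 cells) had 201 CPM in the 1 mouse with at least 10 of them. T cells averaged 79.3 ± 19.9, alveolar macrophages 29.4 ± 15.7 and monocytes 23.8 ± 12.8 CPM. Structural cells were above B cells in 7 of 8 mice and T cells were above alveolar macrophages in 8 of 8. B cells were above NK cells in only 3 of 8, and alveolar macrophages above monocytes in 5 of 8, so these neighbours did not differ beyond their spread. Cells labelled mast cells (106 ± 124 CPM, 3 mice) and myeloid cells (88.5 ± 84.3 CPM) had an SD as large as the mean or close to it. No test was made between cell types here, because the types were drawn from the same counts.

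The place of PCs in this order depended on what a molecule was counted against. Immunoglobulin transcripts made up 69.2% of all UMIs of PCs. With these genes left out of the totals, an alternative chosen after the data were seen, PCs rose from 131 to 413 CPM. Structural cells stayed at 333 CPM, but their total kept the hemoglobin of the red blood cells of structural cluster 4. That cluster held 1615827 of 8718951 structural UMIs and 15 of 3151 structural Zbtb20 UMIs. The order of PCs and structural cells was therefore not settled. Shares of cells at an equal depth are lowered by immunoglobulin transcripts too, since the UMIs drawn from each cell include them. At 1000 UMIs per cell, the expected share of cells with a Zbtb20 UMI was 31.0% in structural cells, 13.6% in the 32 Type 2 pneumocytes, 12.8% in PCs, 12.5% in NK cells, 10.4% in B cells and 6.93% in T cells.

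**Figure D1:**
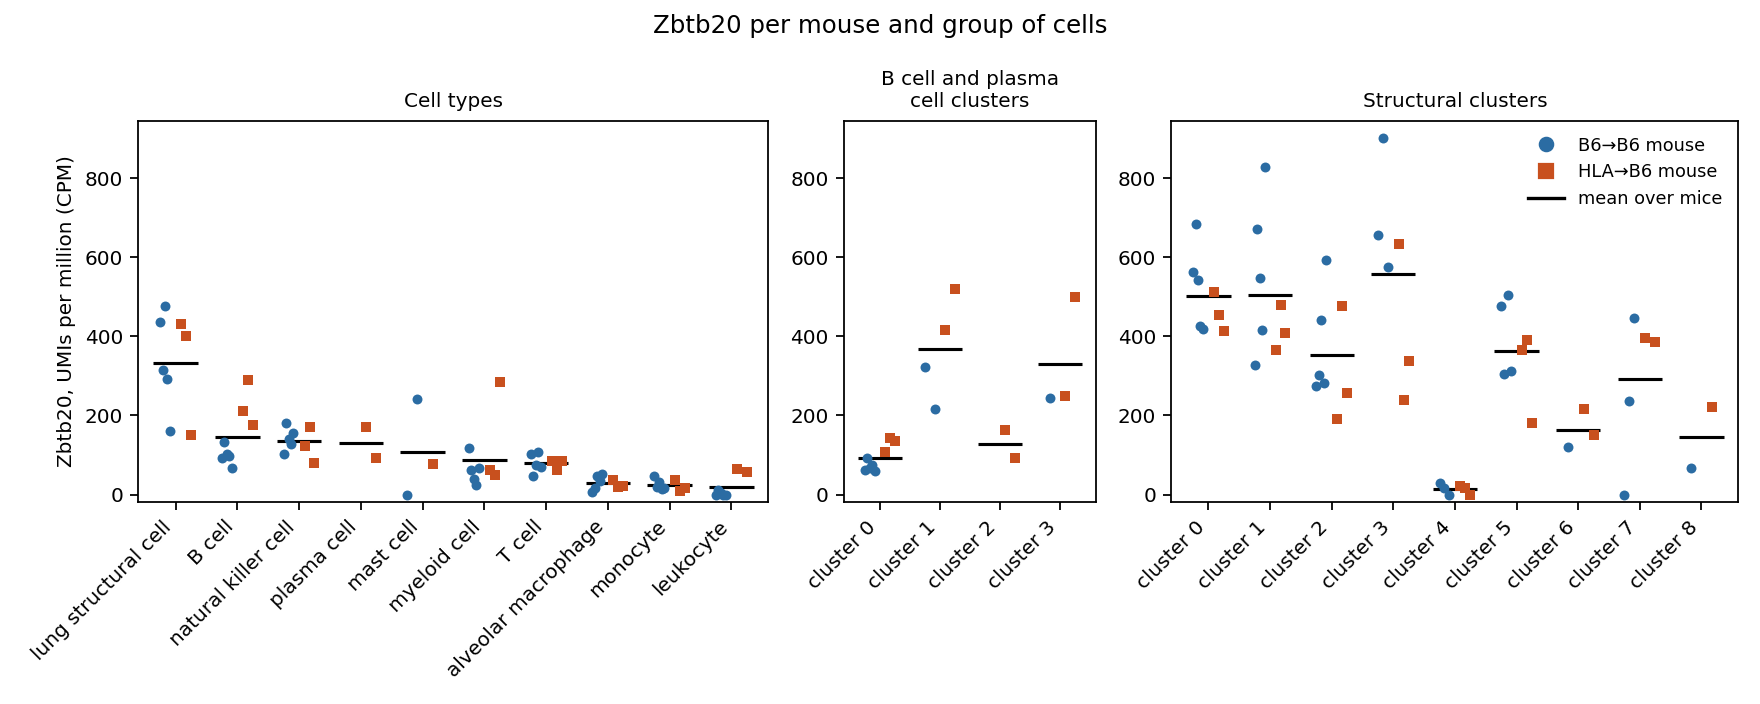
Zbtb20 in CPM (linear vertical axis) in each cell type, B cell or plasma cell cluster and structural cluster, 1 point per mouse with at least 10 cells (circles B6→B6, squares HLA→B6) and a line at the mean over mice. Structural clusters 3, 1 and 0 are highest (557, 505 and 502 CPM), B cell cluster 1 (mean 369 CPM) lies above cluster 0 (93.0 CPM), and in B cells the 3 HLA→B6 mice lie above the 5 B6→B6 mice.

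Within the structural cells the level of Zbtb20 went from 557 to 14.0 CPM between clusters. Cluster 3, the cluster with fibroblast collagens as its leading markers, had 557 ± 238 CPM (6 mice). Clusters 1 and 0, in which 97.0% and 99.5% of cells had an endothelial marker, had 505 ± 170 and 502 ± 93.7 CPM. Endothelial cluster 5, in which 81.0% of cells had a lymphatic endothelial marker as well, had 362 ± 110, and cluster 2, in which 97.7% of cells had a capillary marker, 352 ± 136 CPM. Cluster 7, with platelet markers in all cells, had 293 ± 182 CPM (5 mice). Clusters 6 and 8 had 163 ± 49.1 (3 mice) and 145 ± 109 CPM (2 mice). Cluster 6 also carried the transcription factor Ikzf1 at 91.8 CPM, beside 9.87 in cluster 0 and 203 in T cells. Its Zbtb20 level is therefore not taken as one of non-immune cells. Cluster 9 (32 cells) had 368 CPM in 1 mouse, and cluster 10 (31 cells) had no mouse with 10 cells. Cluster 4 was made of red blood cells, with hemoglobin genes at 766177 CPM, which lower every other gene's CPM there as immunoglobulin does in PCs. Zbtb20 was at 14.0 ± 12.0 CPM, and 3.11% of its cells had a UMI at a median depth of 5067.5 UMIs, beside 39.8% at a median depth of 1068.5 in cluster 0. Cluster 0 was above cluster 5 in 7 of 7 mice, whereas clusters 3 and 1 (4 of 6 mice) and clusters 5 and 2 (5 of 7 mice) did not separate.

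Among B cells, Zbtb20 was higher in cluster 1, a small cluster of 210 cells, than in cluster 0. All cells of cluster 1 had a B cell marker, and they carried Bhlhe41, a regulator of B-1 cells, at 217 ± 61.6 CPM beside 9.85 ± 4.88 in cluster 0. The study named Zbtb20, Zbtb32 and Bhlhe41 for this cluster and the cluster was drawn from the same counts, so its levels are a description with no test. In the 4 mice with at least 10 such cells, Zbtb20 was at 323 and 216 CPM in B6→B6 replicates 2 and 3 and at 416 and 519 CPM in HLA→B6 replicates 1 and 2. In cluster 0, the bulk of the B cells (1895 cells), the same 4 mice had 92.3, 68.3, 106 and 142 CPM. Cluster 1 was above cluster 0 in all 4, by 3.16- to 3.91-fold, and above the PCs of cluster 2 by 2.54- and 5.67-fold in the 2 mice with both. With immunoglobulin genes left out of the totals, cluster 1 averaged 381 and PCs 407 CPM, so the fold over PCs rests on that choice. Cluster 3 had 331 ± 146 CPM in 3 mice, and with all mice pooled stood at 463 CPM beside 383 in cluster 1. Only HLA→B6 replicate 1 had 10 cells of both, so the order of clusters 1 and 3 was not settled. The level in cluster 3 came from cells with a median depth of only 533 UMIs and hemoglobin transcripts at 1643 CPM.

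Zbtb32 had a narrower pattern. B cells averaged 21.6 ± 17.9 CPM, myeloid cells 13.8 ± 23.9, T cells 8.74 ± 4.30 and alveolar macrophages 6.51 ± 5.14 CPM. B cells were above myeloid cells in 6 of 8 mice, and T cells above alveolar macrophages in 4 of 8, so the order of these 4 types did not hold in each mouse. Alveolar macrophages were above monocytes (1.64 ± 2.22 CPM) in 7 of 8. NK cells held 0 Zbtb32 UMIs of 1617431, which allows up to 1.85 CPM. Leukocytes (up to 2.74 CPM), mast cells (up to 21.2 CPM) and Type 2 pneumocytes (up to 13.5 CPM) also held 0. The limits of mast cells and Type 2 pneumocytes lie above the T cell mean, so their counts of 0 do not set them below T cells. The sources do not say whether the deposited counts are from before or after the removal of free RNA, so low levels of either gene may include it. Structural cells held 3 UMIs in 5514 cells and PCs 2 UMIs in 172 cells.

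Within the B cells, Zbtb32 lay in cluster 1, again a description with no test. That cluster held 92 of the 259 Zbtb32 molecules with 1.75% of all UMIs, and 25.2% of its cells had a Zbtb32 UMI (median depth 2976), beside 0.475% in cluster 0 (median depth 1584), 1.16% in PC cluster 2 (median depth 7845) and 0 of 1011 NK cells (median depth 1484). Cluster 3 held 3 Zbtb32 molecules in 157 cells (1.91% of cells, median depth 533), and averaged 16.3 ± 28.3 CPM over 3 mice, from 1 molecule in B6→B6 replicate 5 (49.0 CPM) and none in the other two. At 1000 UMIs per cell, 10.2% of cluster 1 and 0.298% of cluster 0 had one. The level in cluster 1 was 83.8 and 144 CPM in B6→B6 replicates 2 and 3 and 96.1 and 128 CPM in HLA→B6 replicates 1 and 2, a mean of 113 ± 27.8. Cluster 0 averaged 2.56 ± 2.85 CPM over 8 mice and PC cluster 2 held 1.89 and 0 CPM in 2 mice. Cluster 1 was above cluster 0 in all 4 mice, by 11.3-, 40.0- and 48.5-fold in the 3 mice where cluster 0 held any Zbtb32. Against groups with no Zbtb32 at all, the pooled level of cluster 1 (120 CPM) was at least 64.9-fold higher than that of NK cells and at least 109-fold higher than that of structural cluster 0, with 3 counts over the group taken as the limit of a count of 0.

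**Figure D2:**
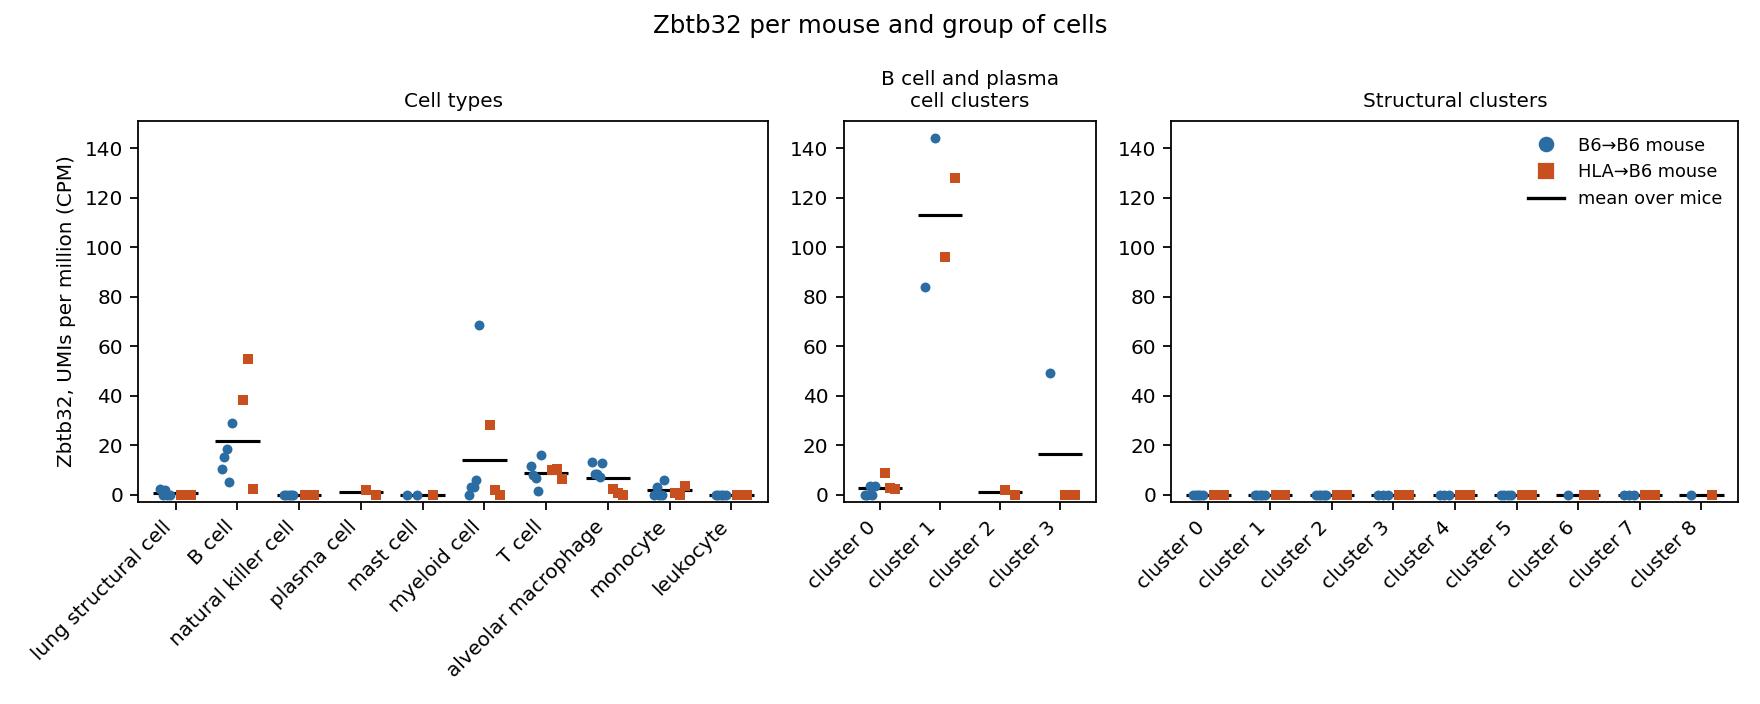
Zbtb32 in CPM (linear vertical axis) in the same groups of cells, 1 point per mouse with at least 10 cells (circles B6→B6, squares HLA→B6) and a line at the mean over mice. B cell cluster 1 stands at 83.8 to 144 CPM in its 4 mice, natural killer cells lie at 0, and myeloid cells of B6→B6 replicate 5 (68.4 CPM) stand apart from the other mice of that group.

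The mice with fewer than 10 cells in cluster 1 showed how few cells carry the signal. B6→B6 replicate 5 had 6 such cells, which held 16 of the 19 Zbtb32 molecules of its B cells and PCs but only 3 of their 44 Zbtb20 molecules. HLA→B6 replicate 3 had 5, which held 0 of 1 Zbtb32 and 4 of 86 Zbtb20 molecules. Over the 210 cells of cluster 1, 30 held both transcripts, 101 only Zbtb20 and 23 only Zbtb32. The product of the separate shares gives 33.1 cells with both, so the transcripts were not found together more often than their shares give. Zbtb20 was read in 56.6% of the cluster 1 cells with Zbtb32 and in 64.3% of those without it.

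Cells outside the B cells that held Zbtb32 mostly carried the markers of their own label. Of the 64 T cells with a Zbtb32 UMI, 63 were in T cell cluster 1 and 1 in cluster 7, and all had a T cell marker. Of these 64, 6.25% had a B cell marker, beside 2.36% of the other T cells, and the cells with Zbtb32 were deeper (a median of 2022.5 UMIs beside 1644). None had Cd79a, the B cell receptor subunit. T cell cluster 1 had Zbtb32 at 8.54 and cluster 7 at 1.06 CPM over pooled cells, while Zbtb20 stood in the opposite order, at 71.6 and 154 CPM. Cluster 7 was shallower, with a median of 831.5 UMIs per cell beside 1862. Of 37 alveolar macrophages with Zbtb32, 94.6% had Chil3, a chitinase-like protein that marks these cells, beside 60.4% of the other alveolar macrophages, and 2.70% had a B cell marker, beside 2.52%. Of the 37, 32 were from B6→B6 mice, in which 1144 of 1423 alveolar macrophages had Chil3 (375 of 1071 in HLA→B6 mice), and the cells with Zbtb32 were deeper (a median of 4097 UMIs beside 2780). Myeloid cells were the exception. Of the 16 with Zbtb32, 25% had Cd79a and 31.3% had Cd3e, beside 2.57% and 20.4% of the other myeloid cells, and 22 of their 35 Zbtb32 molecules came from HLA→B6 replicate 1. No doublet caller was run, and the part of doublets in the myeloid signal was not tested.

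Which cluster of B cells and PCs held the molecules differed from mouse to mouse. In the 5 B6→B6 mice, cluster 0 held 54.0% to 81.8% of the Zbtb20 molecules of B cells and PCs. In HLA→B6 replicate 1 the PCs of cluster 2 held 52.7%, in replicate 2 cluster 1 held 62.8%, and in replicate 3 cluster 0 held 66.3% and cluster 3 held 29.1%. For Zbtb32, cluster 1 held 80.0% to 91.4% in the 4 mice with 12 to 35 molecules and all 7 in B6→B6 replicate 2. B6→B6 replicates 1 and 4, with 1 and 2 molecules in cluster 1 and none elsewhere, and HLA→B6 replicate 3, with 1 molecule in cluster 0, had too few to compare. Cluster 1 made up 14.2% and 20.1% of the B cells and PCs of HLA→B6 replicates 1 and 2, but 1.71% in replicate 3 and 1.68% to 8.20% in B6→B6 mice.

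**Figure D3:**
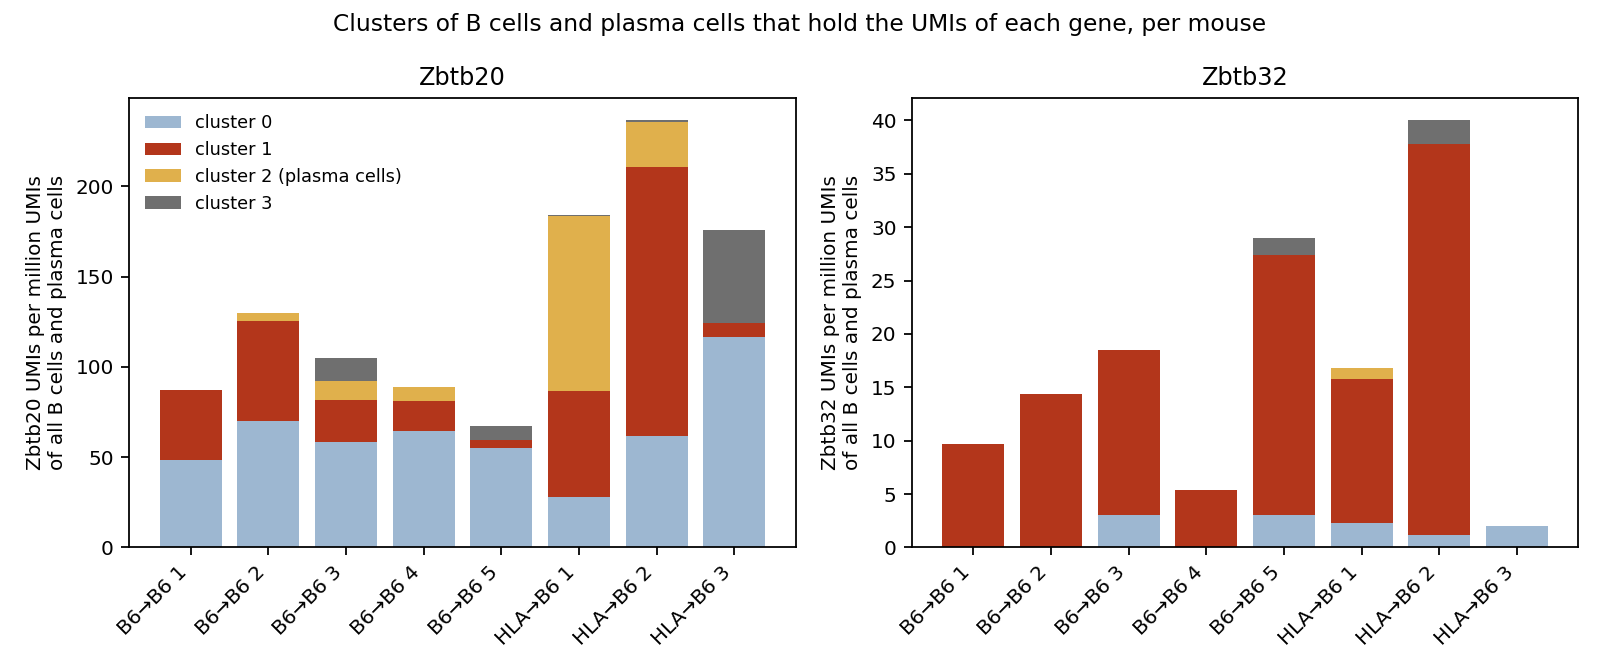
Zbtb20 (left) and Zbtb32 (right) in CPM of all B cells and plasma cells of a mouse (linear vertical axis), stacked by the cluster whose cells held them. Zbtb20 is spread over clusters, with plasma cell cluster 2 holding 52.7% in HLA→B6 replicate 1, and Zbtb32 lies mainly in cluster 1 in all mice but HLA→B6 replicate 3.

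Between the groups, the level of Zbtb20 in the cells labelled B cells, with their clusters together, was higher in HLA→B6 grafts. It was at 92.3, 134, 103, 97.3 and 67.0 CPM in B6→B6 replicates 1 to 5 and at 212, 289 and 177 CPM in HLA→B6 replicates 1 to 3. No B6→B6 mouse reached the lowest HLA→B6 mouse, as for 1.5% of the 6001 genes tested in B cells. The log2 fold change was 1.20 ± 0.20 (SE) and its adjusted p 0.0334 by edgeR's quasi-likelihood test on counts summed per mouse, adjusted over all genes tested, and 7 of 6001 genes (0.117%) passed that threshold. The exact permutation test over mice gave p = 0.0357 for the difference in CPM, the smallest it can give with 5 and 3 mice, and 0.304 after Benjamini-Hochberg adjustment over the 17 groups of cells compared for Zbtb20. At 1000 UMIs per cell, the share of B cells with Zbtb20 was 8.10% ± 1.96 in B6→B6 and 13.8% ± 3.51 in HLA→B6 mice, with ranges of 5.43% to 10.8% and 11.3% to 17.8% (exact p = 0.0357, adjusted 0.536 over 15 groups of cells). Within the linked libraries the means were 110 (3 mice) and 251 CPM (2 mice), and within the unlinked ones 82.2 (2 mice) and 177 CPM (1 mouse).

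The size of this rise did not rest on 1 mouse, but its call did. With each mouse left out in turn the log2 fold change was 1.00 to 1.33 and edgeR's adjusted p 0.0116 to 0.402. It was above the threshold without B6→B6 replicate 1 (0.109), 3 (0.108) or 5 (0.0650) and without HLA→B6 replicate 1 (0.212) or 2 (0.402). Jchain, the joining chain of secreted antibody and a PC marker, rose in the cells labelled B cells as well (log2 fold change 5.92 ± 0.93, edgeR adjusted p = 0.0186), and also in structural cells (4.10 ± 0.62) and alveolar macrophages (3.66 ± 0.88). The summed PC markers (5 of 5 read) ranged from 368 to 728 CPM in B6→B6 and from 549 to 1003 CPM in HLA→B6 B cells, and the endothelial markers (4 of 4 read) from 151 to 355 and from 167 to 378 CPM. The makeup by cluster differed as well. Cluster 1 was 14.2%, 20.1% and 1.71% of the B cells and PCs of HLA→B6 replicates 1 to 3, and 1.68% to 8.20% in B6→B6 mice. Cluster 3 was 1.92%, 2.01% and 29.0%, and 0% to 10.6% in B6→B6 mice. The part of these markers and of the cluster makeup in the Zbtb20 difference was not tested.

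By cluster, the difference in B cells had the same direction but did not pass the threshold. In cluster 0 Zbtb20 was at 63.3, 92.3, 68.3, 74.6 and 60.3 CPM in B6→B6 replicates 1 to 5 and at 106, 142 and 136 CPM in HLA→B6 replicates 1 to 3. The groups did not overlap, as for 1.31% of the 4871 genes tested there, yet with a log2 fold change of 0.83 ± 0.20 edgeR's adjusted p was 0.589, and the exact permutation test on CPM gave p = 0.0357 (0.304 adjusted over the 17 groups). In cluster 0, 0 of 4871 genes passed (0%), 154 had an unadjusted p below 0.05, among them Zbtb20 (4.8e-04), and DESeq2 called 1. At 1000 UMIs per cell the shares of cluster 0 cells overlapped, with 6.89% ± 1.34 and 9.71% ± 2.61 (exact p = 0.107). Within the linked libraries the means in cluster 0 were 74.6 and 124 CPM, and within the unlinked ones 67.5 and 136 CPM. In cluster 1 the log2 fold change was 0.81 ± 0.30 with 2 mice in each group (edgeR adjusted p = 0.413). There 0 of 2206 genes passed edgeR's threshold (0%), 220 had an unadjusted p below 0.05 and DESeq2 called 5, and an exact test cannot go below p = 0.333.

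In no other cell type tested did Zbtb20 pass the threshold. The log2 fold change was -0.11 ± 0.25 in T cells, where 0.0698% of genes passed, -0.10 ± 0.25 in NK cells (0%), -0.09 ± 0.42 in alveolar macrophages (12.3%), 0.01 ± 0.43 in monocytes (0.023%) and -0.13 ± 0.20 in structural cells (0.604%), all with edgeR adjusted p above 0.9. In NK cells 97 genes had an unadjusted p below 0.05 by edgeR and DESeq2 called 0. Myeloid cells had 0.86 ± 0.63 (edgeR adjusted p = 0.999, 0% of genes passed, 215 with an unadjusted p below 0.05, 25 called by DESeq2), and the value rests on HLA→B6 replicate 3, whose 32 myeloid cells held 17 Zbtb20 molecules (286 CPM). Without that mouse it was 0.03. In the structural clusters the values were -0.14 ± 0.26 in cluster 0 (0.686% of genes passed), -0.23 ± 0.29 in cluster 1 (1.02%), -0.07 ± 0.36 in cluster 2 (0.243%), -0.75 ± 0.41 in cluster 3 (0.317%) and -0.17 ± 0.31 in cluster 5 (9.02%). Cluster 3 had 656, 901 and 575 CPM in B6→B6 replicates 1, 3 and 4 and 634, 238 and 338 CPM in HLA→B6 replicates 1 to 3. These overlapped, and edgeR's adjusted p was 0.491.

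**Figure D4:**
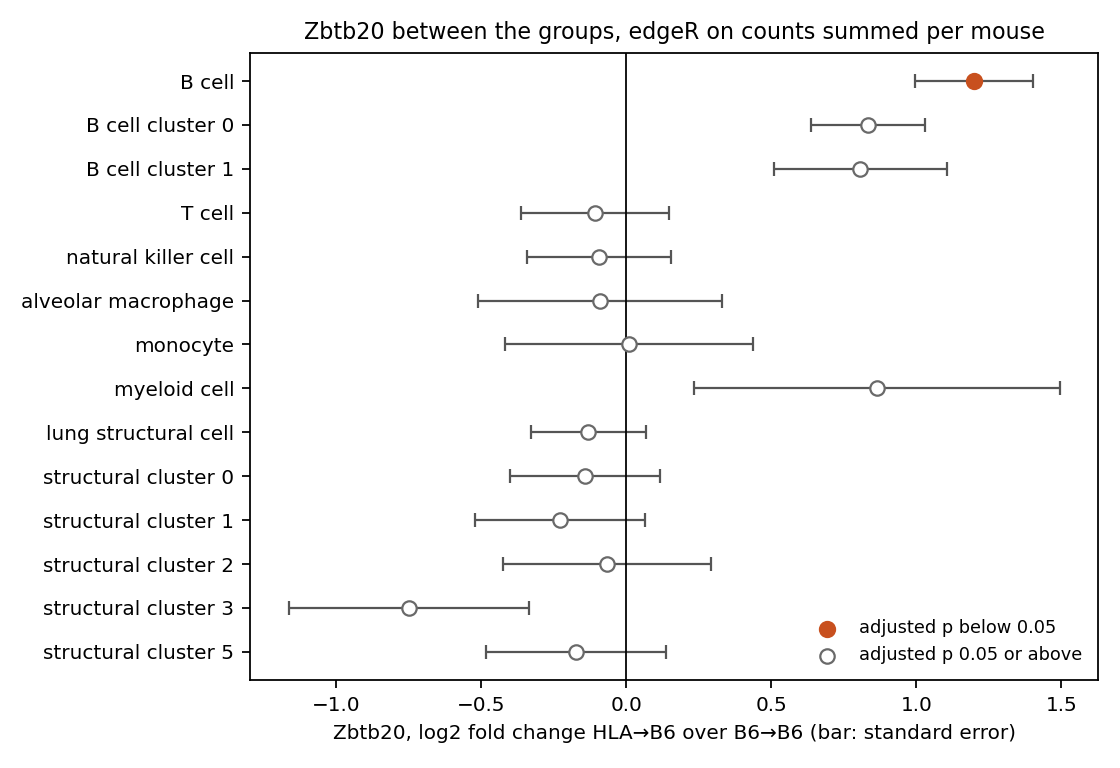
Zbtb20 log2 fold change of HLA→B6 over B6→B6 (horizontal axis, bars are standard errors) by edgeR on counts summed per mouse, in cell types and clusters with at least 2 mice a group. The filled point, B cells at 1.20, has an adjusted p below 0.05, and the open points have not.

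Zbtb32 in B cells did not separate the groups. It was at 10.3, 15.1, 18.5, 5.26 and 28.9 CPM in B6→B6 replicates 1 to 5 and at 38.4, 54.6 and 2.06 CPM in HLA→B6 replicates 1 to 3. HLA→B6 replicates 1 and 2 had more than any B6→B6 mouse and replicate 3 less. The log2 fold change was 0.89 ± 0.56 (edgeR adjusted p above 0.99), within the linked libraries the means were 14.6 and 46.5 CPM, and within the unlinked ones 17.1 and 2.06 CPM. In cluster 1 itself the groups overlapped, with a log2 fold change of 0.03 ± 0.43 (edgeR adjusted p = 0.993). In T cells Zbtb32 averaged 8.67 CPM in B6→B6 and 8.86 CPM in HLA→B6 mice (exact p = 1).

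In alveolar macrophages Zbtb32 was lower in HLA→B6 grafts, from few molecules. The level was 13.2, 8.35, 8.14, 7.20 and 12.6 CPM in B6→B6 replicates 1 to 5, from 4, 4, 4, 16 and 5 molecules, and 2.13, 0.545 and 0 CPM in HLA→B6 replicates 1 to 3, from 3, 2 and 0 molecules. All 3 HLA→B6 mice were below all 5 B6→B6 mice, as for 8.04% of the 15654 genes with a UMI in these cells. The exact permutation test gave p = 0.0357, the smallest possible, and 0.286 after adjustment over 8 groups of cells. Pooled, 33 molecules in 1423 cells stood against 5 in 1071 cells, a level 9.21-fold higher in B6→B6 mice with a 95% interval of 3.57 to 30.2 that covers counting error only. The share of cells with Zbtb32 at 1000 UMIs per cell was 1.09% ± 0.355 in B6→B6 and 0.0801% ± 0.0858 in HLA→B6 mice (exact p = 0.0357, adjusted 0.286). Zbtb32 was too low for the filter on counts, and with no filter edgeR put the change at -2.84 ± 0.78 (log2, adjusted p = 0.0208), as one of the 2.98% of genes called lower there. Within the linked libraries the means were 9.89 and 1.34 CPM, and within the unlinked ones 9.88 and 0 CPM.

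The cells labelled alveolar macrophages also differed in their own markers between the groups. Chil3 was at 7034 CPM in B6→B6 and 2069 in HLA→B6 mice, Ear2, a ribonuclease, at 1984 and 492, Mrc1, the mannose receptor, at 539 and 181, and the scavenger receptor Marco at 193 and 13.9 CPM. All 4 of 4 markers were read, and their summed level was 8743 to 11144 CPM in B6→B6 and 335 to 4314 CPM in HLA→B6 mice. Cells with a Chil3 UMI made up 47.9% to 96.6% of the label in B6→B6 and 22.2% to 49.9% in HLA→B6 mice. Within those cells alone, a comparison added after the data were seen, Zbtb32 was at 11.6 ± 2.81 CPM in B6→B6 (33 molecules) and 1.72 ± 2.98 CPM in HLA→B6 mice (3 molecules), from 7.46 to 15.2 and from 0 to 5.17 CPM (exact p = 0.0357, the smallest possible, not adjusted). Cells without Chil3 held 0 and 2 molecules. The share of all genes that did not overlap within cells with Chil3 was not computed. Depth within these cells differed from mouse to mouse. HLA→B6 replicate 2 had 900303 UMIs in 114 cells and B6→B6 replicate 2 had 352802 in 136. HLA→B6 replicate 1 (580430 UMIs in 213 cells) was close to B6→B6 replicate 1 (262853 UMIs in 99 cells). The part of the makeup of the label in the Zbtb32 difference was not tested. Of 37 alveolar macrophages with Zbtb32, 0 had a barcode shared with another mouse, beside 396 of all 2494 (15.9%) and 2.62% of T cells. With cells of a shared barcode left out, Zbtb32 averaged 7.58 CPM over 8 mice in place of 6.51.

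**Figure D5:**
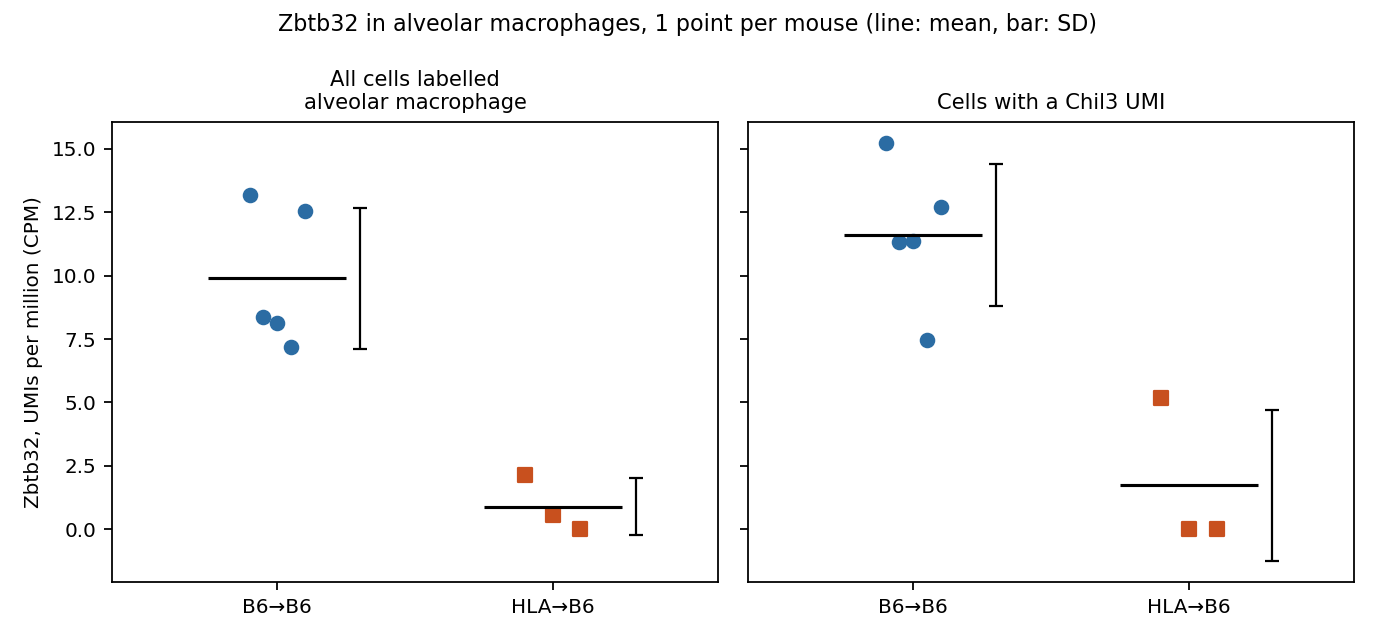
Zbtb32 in CPM (linear vertical axis) in all cells labelled alveolar macrophage (left) and in those with a Chil3 UMI (right), 1 point per mouse with the mean (line) and SD (bar) of each group. The 5 B6→B6 mice lie above the 3 HLA→B6 mice in both panels, at means of 9.89 and 0.892 CPM on the left and 11.6 and 1.72 CPM on the right. On the left this held for 8.04% of the genes with a UMI, and on the right that share was not computed.

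Among cells labelled leukocytes, Zbtb20 was at 0, 12.3, 3.90, 0 and 0 CPM in B6→B6 replicates 1 to 5 and at 63.6 and 56.6 CPM in HLA→B6 replicates 1 and 2, from 40 and 2 molecules. HLA→B6 replicate 3 had 5 such cells and 0 molecules, and was not used. With 5 and 2 mice the exact test gave p = 0.0952, the smallest it can give, and 0.540 after adjustment over 17 groups of cells. The share of all genes that did not overlap here was not computed. Both HLA→B6 mice used are of the linked libraries, so the unlinked ones allowed no comparison.

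The other BTB zinc finger genes were set beside the pair, which the study had named for cluster 1 from these same counts. Of 44 listed, 29 had at least 10 molecules in clusters 0 and 1 of the 4 mice with both. Of the 29, 1 (3.45%) was higher in cluster 1 in every mouse and 3 (10.3%) lower in every mouse. The shares over 8941 genes were 7.93% and 14.4%, so these counts are near the background and say nothing particular of the family. Some members had few molecules in cluster 1, such as Zbtb6 with 4 and Zbtb41 with 1. By log2(CPM + 10), Zbtb32 was 3.17 ± 0.45 (SD) higher in cluster 1 than in cluster 0 and Zbtb20 1.73 ± 0.15 higher, the 5th and the 31st largest differences of the 8941 genes, whereas the median BTB gene stood at -0.05 and the median gene at -0.12. The gene higher in every mouse was Zbtb45, at 0.87 ± 0.63. Of the 5 family members with the most CPM in cluster 1, the other three were Zbtb7a, Zbtb38 and Zbtb1. Zbtb7a, which is needed by germinal center B cells, differed by 0.09 ± 0.20, Zbtb38, which binds methylated DNA, by 0.68 ± 0.80, and Zbtb1, needed for lymphocyte development, by 0.06 ± 0.46. Between the groups of mice, edgeR called 0 of 14 BTB genes tested in B cells, 0 of 15 in T cells, 0 of 7 in alveolar macrophages and 0 of 21 in structural cells. The shares of all genes called were 0.117%, 0.0698%, 12.3% and 0.604%, so counts of 0 are near the background and say nothing particular of the family.

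Of 24 transcription factors of B cells and PCs, 23 had enough molecules. Of these, 3 were higher and 7 lower in cluster 1 than in cluster 0 in every mouse (13% and 30.4%). The shares over 8941 genes were 7.93% and 14.4%. The median was -0.24 for the list and -0.12 for all genes. Bhlhe41 had the largest difference, 3.39 ± 0.34. The others were Zeb2, a factor of terminally differentiated lymphocytes, at 1.37 ± 0.61 and Ikzf3 (Aiolos) at 0.70 ± 0.45. Lower in every mouse were Ets1, which holds B cells back from becoming PCs, at -1.59 ± 0.36, Id3, Rel, Ebf1, the early B cell factor, at -1.22 ± 0.40, Foxo1, Pou2af1 and Bach2, which represses the PC program, at -0.88 ± 0.26. Prdm1, the PC factor Blimp-1, was at 0.89 ± 0.67 (higher in 3 of 4 mice) from 9 molecules in cluster 1. Of 8 genes tied to either factor as targets or partners, 7 had enough molecules. Of these, 0 were higher and 2 lower in every mouse (0% and 28.6%, beside 7.93% and 14.4% of all genes). The 2 were Ciita, the MHC class II activator that Zbtb32 represses with Prdm1 in PCs, at -0.66 ± 0.51, and Nfkbia, an NF-κB inhibitor, at -0.53 ± 0.39. Irf4, the factor that acts upstream of Zbtb20 in B cells, was at 0.38 ± 0.96.

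Between the groups of mice, 3 of 11 tested transcription factors of the B cell list and 3 of 5 tested genes tied to the pair passed edgeR's threshold in alveolar macrophages, where 12.3% of all 5798 genes did. The lists share Irf8 and Ikzf1. There Irf8 (edgeR adjusted p = 0.0122, 1.23 ± 0.24 in log2) and Ciita (edgeR adjusted p = 0.0467, 1.98 ± 0.58) were higher and Ikzf1 (-0.76 ± 0.19) and Xbp1 (-0.69 ± 0.18) lower in HLA→B6 mice. In B cells 0 of 22 and 0 of 6 were called, near the 0.117% of all genes called there.

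Across 20 groups of cells, the levels of Zbtb20 and Zbtb32 did not go together (Pearson's r = 0.12 and Spearman's rho = -0.23 of log2(mean CPM + 10)). These are descriptions across groups of cells that share libraries and depth. Among 10266 genes, the 5 most like Zbtb20 were Zmynd11, a reader of histone methylation (0.86), BC005561 (0.86), H2-Q6 (0.86), Tmem263 (0.85) and H2-Q4 (0.85), of which H2-Q6 and H2-Q4 belong to a family of near-identical genes that can share reads. Those most like Zbtb32 were AC125149.3 (0.78), A530040E14Rik (0.76), A530032D15Rik (0.75), Rab30, a small GTPase (0.75), and Kynu, an enzyme of tryptophan breakdown (0.74), and all 5 had their highest level in B cell cluster 1. With Spearman's rho the likeness of A530032D15Rik to Zbtb32 was 0.54 and that of Rab30 0.59. Bhlhe41 had r = 0.51 with Zbtb32 and 0.14 with Zbtb20, and was also high in alveolar macrophages, at 173 ± 42.3 CPM.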

How the data were processed

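The authors made UMI counts per gene and cell from 10x Genomics 3′ libraries (10000 cells loaded per graft) with Cell Ranger on mm10, excluded barcodes under 200 UMIs and genes in under 3 cells, and ran SoupX against free RNA. The deposited values are whole counts, and no source used here states if SoupX had already been applied to them. Cells took mouse, cell type and cluster from the authors' table, by cell name. All 20778 cells and 17921 genes were used. Of the gene names, 98.8% were in GENCODE.

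Counts were summed per mouse (at least 10 cells), scaled by TMM, filtered by filterByExpr (minimum count 10) and tested by edgeR 4.0.16 with Benjamini-Hochberg adjustment over all genes tested. DESeq2 1.42.0 was an alternative. Shares of cells were computed at an equal depth of 1000 UMIs per cell (500 in structural clusters), as the mean of each cell's chance to hold a UMI after thinning, and compared, like CPM, by two-sided exact permutation over 56 splits of the mice. Counts of 0 were read as at most 3 counts. The edgeR step was tested on simulated data. Counting intervals cover counting error only.

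The genes and lists were chosen with earlier results of these data known. Genes named are the pair, the 5 most like each (over genes with at least 200 UMIs), Bhlhe41, the 5 BTB genes with the most CPM in B cell cluster 1, list genes called between groups and markers; Zbtb45 and the other genes of the lists named for cluster 1 were chosen after their values were seen.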

Additional observations from a re-analysis of the deposited data

Results flagged for a closer look

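Zbtb32 in myeloid cells of B6→B6 replicate 5 stood at 68.4 CPM, far from the other 4 mice of that group, from 5 molecules in 21 cells. Of 16 such groups looked at, 1 held a mouse that far apart, and chance alone gives about 1 in 20. The difference between the groups of mice was set side by side for 9 pairs of cell types, as log2(CPM + 10) within each mouse. For Zbtb20 it was larger in B cells than in NK cells by 1.32 and than in structural cells by 1.20 (exact permutation p = 0.0357 each, 0.107 adjusted over the 9). For Zbtb32 it was lower in alveolar macrophages than in T cells by -0.92 (exact permutation p = 0.0357, 0.107 adjusted). None of the 3 passed the adjusted threshold.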

How the results depend on the processing

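Of 201 alternative values of the 16 log2 fold changes, 172 kept direction and side of the threshold, and the cause of the others was not tested. Zbtb20 in B cells passed under every setting that kept all mice; with 1 mouse left out it ranged from 1.00 to 1.33. Small values of Zbtb20 changed sign. In T cells the replicate block, which left out B6→B6 replicates 4 and 5, gave 0.11 and leaving out a mouse -0.27 to 0.060. In alveolar macrophages the replicate block gave 0.48, the linked or unlinked set as a block 0.046, cells with a shared barcode left out 0.10, and leaving out a mouse -0.33 to 0.11. In monocytes the same settings gave -0.68, -0.084, -0.018 and -0.96 to 0.30. Leaving out a mouse gave -0.35 to 0.030 in NK cells and -0.66 to 0.15 in structural cluster 2, where at least 20 cells per mouse gave 0.29. Zbtb32 in B cell cluster 1 ranged from -0.28 to 0.44. Differences in the share of cells with Zbtb20 changed sign in T cells at 2000 UMIs (0.143 percentage points) and without a mouse (-1.35 to 0.154), and in structural cells without a mouse (-3.74 to 3.19), and that with Zbtb32 in T cells at 500 UMIs (-0.026).

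The replicate numbers did not pair the mice (correlations of deviations -0.18, 0.01 and 0.17 in B cells). The replicate block was fitted without B6→B6 replicates 4 and 5, so its counts of genes also reflect fewer mice. With it Zbtb20 in B cells was at 1.06 (edgeR adjusted p = 0.0305) and 20 genes were called in B cells in place of 7, beside 2 by DESeq2, 73 with no filter and 0 to 16 with a mouse left out. In alveolar macrophages 712 genes became 253 with the replicate block, 1083 with no filter, 1116 without shared barcodes and 180 to 829 with a mouse left out. Mean levels moved by more than 1 SD in 4 of 365 cases, all PCs with immunoglobulin genes left out.

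With 3 HLA→B6 mice, 4 mice with at least 10 cluster 1 cells and 259 Zbtb32 molecules in all, depth limits what can be seen of Zbtb32: outside B cell cluster 1 most groups held a few molecules per mouse, and a difference in PCs between the groups of mice could not be tested, since only 2 mice had 10 PCs.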
